A study of Mus musculus with 2 samples.

Results

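The keratin family was described in total RNA sequencing of the mouse stomach at embryonic day 16.5. Members were the protein-coding genes whose GENCODE symbol is Krt followed by a number and at most 1 letter, and 53 of the 43346 Ensembl genes in the tables met this rule. They comprise 28 type I and 25 type II genes, by the sequence type of the chain they encode. By the epithelium in which they are best known, 5 were classed as simple, 19 as stratified and 23 as hair keratins, and 6 stayed unclassified (Krt23, Krt80, Krt42, Krt222, Krt88 and Krt90). Both libraries belong to a single group of B6NCrl embryos, with no treatment named in the labels, and each was made from stomachs pooled across males and females. The pool of replicate 2 came from 41 embryos, and no number is given for replicate 1. The labels call the libraries biological replicates. With 1 group there is no condition to compare, so the data answer which keratins the organ transcribed, in what balance, and how far the pools differed.

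Keratins are the intermediate filament proteins of epithelial cells. A type I chain pairs with a type II chain, and the filaments built from these pairs run between desmosomes and give the cell its resistance to strain. Simple, single-layered epithelia make Krt8 and Krt18, the basal layer of stratified epithelia makes Krt5 with Krt14 or Krt15, and the layers above switch to other pairs: Krt4 and Krt13 in wet mucosa, Krt1 and Krt10 in skin. The mouse stomach holds both kinds of lining, a stratified squamous forestomach and a glandular stomach of simple epithelium.

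Replicate 1 held 44567153 expected counts and replicate 2 held 25677702. All 5 of 5 stomach genes checked stood at 1 TPM or more in both libraries, against 64.3% of all protein-coding genes. TPM is a gene's length-corrected share of all transcripts, scaled to a fixed total. The trefoil factor gene Tff1, among these 5, stood at 337 and 530.7 TPM in replicates 1 and 2. Replicate 1 stood apart in skeletal muscle genes, whose 5 markers summed to 1750 TPM there against 164 in replicate 2. Values are therefore given for each library, in the order replicate 1 and replicate 2, and as mean ± SD with n = 2. In a bulk tissue, fewer cells of a type and less RNA per cell cannot be told apart.

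The keratin genes lie in a pair of clusters on GRCm38. The chromosome 11 cluster held 27 members within 1037 kb (99232761 to 100269871), all of type I and all on the minus strand. The chromosome 15 cluster held 26 members within 685 kb (101347444 to 102032027), of which 4 lie on the plus strand. Its last gene, Krt18 (102028180 to 102032027), is the only type I gene outside chromosome 11 and adjoins its type II partner Krt8 (101996698 to 102004482).

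Members at 1 TPM or more in both libraries are called expressed below. Among them the most similar pair was Krt6a and Krt6b, which lie 9.62 kb apart. Their coding sequences matched at 1622 of 1659 aligned bases (97.6% identity with gaps counted), with an identical run of 280 bases. Among ungapped 60-base windows of the coding alignment, bases 817 to 876 held the most differences and are shown. Bases are counted from the first base of the start codon in the GENCODE M21 transcripts. Untranslated parts were not compared. Capitals mark the 10 mismatches.
Krt6a: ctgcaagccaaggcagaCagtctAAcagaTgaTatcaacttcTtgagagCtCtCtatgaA
Krt6b: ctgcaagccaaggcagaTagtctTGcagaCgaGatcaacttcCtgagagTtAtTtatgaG
Reads that cover no mismatch fit either gene. Cut into windows of 100 bases, 66.0% of the windows of Krt6a and 69.4% of those of Krt6b occurred in no other gene's annotated transcripts.

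Sequence sharing touched few of the other expressed members. For 36 of the 53 genes, and for 14 of the 21 that reached 1 TPM in both libraries, no 100-base window was shared with another gene. The exceptions with the lowest unique share, beside Krt6a and Krt6b, were Krt16 (75.7%, shared with the pseudogene Gm11597 and with Krt14), Krt34 (82.5%, shared with Krt33a and Krt31) and Krt8 (83.1%, shared with the pseudogene Krt8-ps). Values of Krt6a, Krt6b, Krt16 and Krt34 depend on how the quantification split shared reads. Krt8-ps was not found among the quantified features, so no split between it and Krt8 can be given. Windows were counted over GENCODE M21 transcripts, while the deposited notes name annotation M4. Gm11597 was at 0 TPM in both libraries. Over the 55 pairs of expressed type I genes coding identity ran from 45.9% to 82.6%, with a median of 56.5%, and the highest pair was Krt14 and Krt16. The 45 type II pairs had a median of 59.0%, and the 110 pairs between types a median of 46.5%.

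Start regions of keratin genes often carried a TATA-like element. RefSeq promoter windows on GRCm38.p6 whose transcription start lies within 50 bases of the GENCODE start were at hand for 30 members, 9 of them expressed. The 60 bases upstream of the start are printed for 5 expressed members with the letters ATAAAA in capitals. They are also printed for Krt10, whose 60 bases lack ATAAAA but hold the related TATAAA.
Krt13 (chr11:100121567-100121626, minus strand): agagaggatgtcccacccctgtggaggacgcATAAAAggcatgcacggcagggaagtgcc
Krt5 (chr15:101712906-101712965, minus strand): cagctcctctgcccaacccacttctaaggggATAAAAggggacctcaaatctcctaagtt
Krt78 (chr15:101954288-101954347, minus strand): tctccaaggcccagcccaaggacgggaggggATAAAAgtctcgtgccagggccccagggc
Krt20 (chr11:99438154-99438213, minus strand): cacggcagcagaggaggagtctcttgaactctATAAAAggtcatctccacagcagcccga
Krt34 (chr11:100041555-100041614, minus strand): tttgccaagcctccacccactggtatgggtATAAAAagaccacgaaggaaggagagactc
Krt10 (chr11:99389365-99389424, minus strand): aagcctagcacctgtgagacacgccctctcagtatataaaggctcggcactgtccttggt
ATAAAA began 29 bases upstream in Krt13, Krt5 and Krt78, 28 in Krt20 and 30 in Krt34. Its first base lay 20 to 40 bases upstream, on the gene's strand, in 13 of the 30 keratin windows (43.3%) and in 2.47% of all 10854 protein-coding windows. The share was 6 of 9 among expressed and 7 of 21 among other keratins. The motif was chosen after the sequences were seen, and TATAAA, searched as described next, gave the opposite order, with 3 of 9 among expressed and 12 of 21 among other keratins.

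Other motifs were counted over the whole 300-base window on both strands. TATAAA occurred in 15 of 30 keratin windows and in 11.8% of all windows, and it overlaps ATAAAA wherever TATAAAA is written. GGGCGG, the core of the GC box, occurred in 3.33% of keratin windows and 50.5% of all. These are letter matches and describe the windows only.

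Of the 53 keratins, 21 reached 1 TPM in both libraries, 11 of type I and 10 of type II. Among all protein-coding genes 64.3% did so. All 5 simple keratins passed, 13 of 19 stratified, 1 of 23 hair and 2 of 6 unclassified. The highest value among the genes left out was 1.24 TPM, that of the hair keratin Krt35 in replicate 2, which stood at 0.62 in replicate 1. At the other end 6 members had no counts in either library, and 24 had fewer than 10 in each. A count of 0 allows up to 3 counts, which for a keratin were worth at most 0.122 TPM in replicate 1 and 0.217 in replicate 2 and cover counting error only.

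Keratin transcripts together summed to 8177 and 12012 TPM, 0.818% and 1.20% of the total. They were concentrated in few genes: the 4 highest members carried 68.8% ± 2.02 of the sum and the 8 highest 93.4% ± 0.0279 (SD, n = 2). The order of the 21 expressed members was nearly the same in both libraries (Spearman's rho 0.999, across genes, which are not independent replicates).

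**Figure D1:**
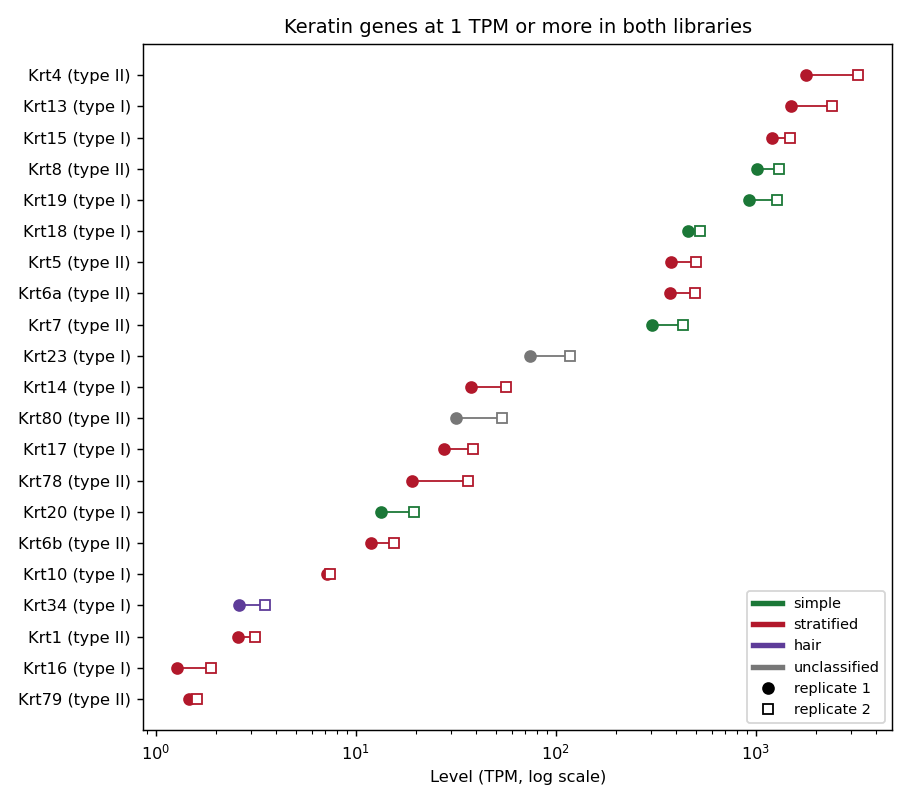
Level of each of the 21 keratins at 1 TPM or more in both libraries, in TPM on a log axis, with filled circles for replicate 1, open squares for replicate 2 and colours for the class. Krt4 leads at 1787 and 3252 TPM, 9 genes lie above 300 TPM in both libraries, and the lowest genes lie near 1.5 TPM.

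Simple keratins were all transcribed, and Krt8 led them. Krt8, the type II keratin of every simple epithelium, stood at 1017 and 1302 TPM (1159 ± 202), and its type I partner Krt18 at 458 and 524 (491 ± 46.7). Krt19, a small type I keratin of ducts, mucosae and progenitor cells, stood at 927 and 1272 TPM (1100 ± 244), so Krt19 rather than Krt18 was the leading simple type I gene in both libraries. Krt7, a type II keratin of glandular and ductal epithelium, stood at 301 and 432 TPM (366 ± 92.9). Krt20, the type I keratin of mature gastric foveolar and intestinal cells, was far lower at 13.4 and 19.5 TPM (16.5 ± 4.33). Its range did not overlap that of any other simple keratin. The simple class summed to 2716 and 3550 TPM, 31.4% ± 2.59 of the keratin total. Krt7 and Krt19 are also made in stratified epithelia, and the share was 16.8% when both were counted as stratified.

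Among basal keratins Krt15 outweighed Krt14. Krt5, the type II keratin of basal cells, stood at 376 and 499 TPM (438 ± 87.0). Krt15, a type I keratin of basal cells that is prominent in oesophagus and forestomach, stood at 1197 and 1477 TPM (1337 ± 198). Krt14, the usual type I partner of Krt5 in skin, stood at 37.6 and 56.3 TPM (47.0 ± 13.2). Krt15 was therefore 31.8-fold and 26.2-fold above Krt14, a comparison added after the values had been seen. The basal genes made up 19.7% and 16.9% of the keratin total.

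Mucosal suprabasal keratins formed the largest subgroup by level. Krt4, the type II keratin of differentiating cells in internal stratified epithelia, stood at 1787 and 3252 TPM (2520 ± 1036), and its type I partner Krt13 at 1505 and 2399 (1952 ± 632). Krt78, a type II keratin of stratified epithelium, stood at 19.1 and 36.2 TPM (27.6 ± 12). The other members of the subgroup were absent or nearly so: Krt76, of hard palate and other masticatory mucosa, was at 0.03 TPM in each library and Krt24 at 0 counts. This subgroup carried 40.5% of the keratin sum in replicate 1 and 47.3% in replicate 2. The ratio of basal to mucosal suprabasal transcripts was 0.487 and 0.357, a log2 ratio of -1.26 ± 0.31 (SD, n = 2), below 0 in both libraries.

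Keratins of activated or stressed epidermis were unevenly represented. Krt6a, a type II keratin of wounded skin that is constitutive in tongue and oesophagus, stood at 374 and 494 TPM (434 ± 85.3). Krt6b, the near copy printed above, stood at 11.9 and 15.5 TPM (13.7 ± 2.55), 31.3-fold and 31.8-fold lower. Krt17 stood at 27.5 and 38.3 TPM (32.9 ± 7.62) and Krt16, often named as the type I partner of Krt6a, at 1.28 and 1.88 TPM (1.58 ± 0.424). The type I members were thus a small part of the subgroup, with Krt6a 292-fold and 263-fold above Krt16. Krt6a and Krt5, which neighbour each other on chromosome 15, differed by -0.011 ± 0.0034 on the log2 scale (Krt6a minus Krt5, log2(TPM + 0.1)). These comparisons were added after the values had been seen.

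Epidermal suprabasal keratins were low, and 2 of the 5 reached 1 TPM. Krt10 stood at 7.19 and 7.42 TPM (7.31 ± 0.163) and its type II partner Krt1 at 2.57 and 3.13 (2.85 ± 0.396). Krt77, of sweat ducts, was at 0.35 and 0.27 TPM, Krt2 at 0.04 and 0.02, and Krt9, of palm and sole skin, at 0 counts in both. The subgroup summed to 10.2 and 10.8 TPM. Krt79, of hair canal and sebaceous duct, stood at 1.47 and 1.60 TPM (1.54 ± 0.0919), and the corneal keratin Krt12 at 0.16 and 0.10.

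Markers of cornified skin gave a mixed picture beside these keratins. Of 8 epidermis markers 3 were detected, against 64.3% of all protein-coding genes. They were Krtdap at 620 and 951 TPM, Sbsn at 65.3 and 98.0, and the loricrin gene Lor at 2.48 and 3.81. The filaggrin gene Flg was at 0.02 and 0.01 TPM. Krtdap and Sbsn, secreted products of differentiating squamous cells, are not particular to skin. The list summed to 689 and 1055 TPM, and its part in the levels of stratified keratins was not tested.

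Hair keratins were close to absent. Krt34, a type I keratin of the hair cortex, was the only member of 23 that reached 1 TPM in both libraries, at 2.61 and 3.52 TPM (3.07 ± 0.643). Below it came Krt35 (0.62 and 1.24 TPM), Krt31 (0.66 and 0.61) and Krt36 (0.35 and 0.63), which lie near Krt34 on chromosome 11, and then Krt75 (0.21 and 0.33) on chromosome 15. The 15 hair shaft genes summed to 5.36 and 6.91 TPM, and the 8 genes of the root sheath and companion layer to 0.43 and 0.83. The whole class made up 0.0676% ± 0.0045 of keratin transcripts. Type II hair keratins, without which type I chains have no partner of their own class, summed to 0.52 and 0.68 TPM. The hair class as planned also named Krt85 and Krt74. They are not among the members found, so the hair sums leave them out.

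Genes of the hair follicle were low as well. Of 57 keratin-associated protein genes (Krtap), which crosslink hair keratins, 0 were detected, and the highest value in either library was 0.21 TPM. The hair differentiation factor gene Hoxc13 had 0 counts in both. Of 7 hair follicle markers 3 passed 1 TPM in both libraries, against 64.3% of all protein-coding genes. These were Tchh (trichohyalin) at 1.92 and 2.18, Foxn1 at 1.32 and 2.26, and Msx2 at 1.27 and 1.88. Their part in the level of Krt34 was not tested.

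Unclassified members Krt23 and Krt80 were both expressed. Krt23, a type I keratin at the edge of the known classes, stood at 74.6 and 117 TPM (96.0 ± 30.3). Krt80, a type II keratin found near desmosomes in many epithelia, stood at 31.7 and 54.0 TPM (42.8 ± 15.8). The remaining 4 did not exceed the 0.22 TPM of Krt222 in replicate 1.

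**Figure D2:**
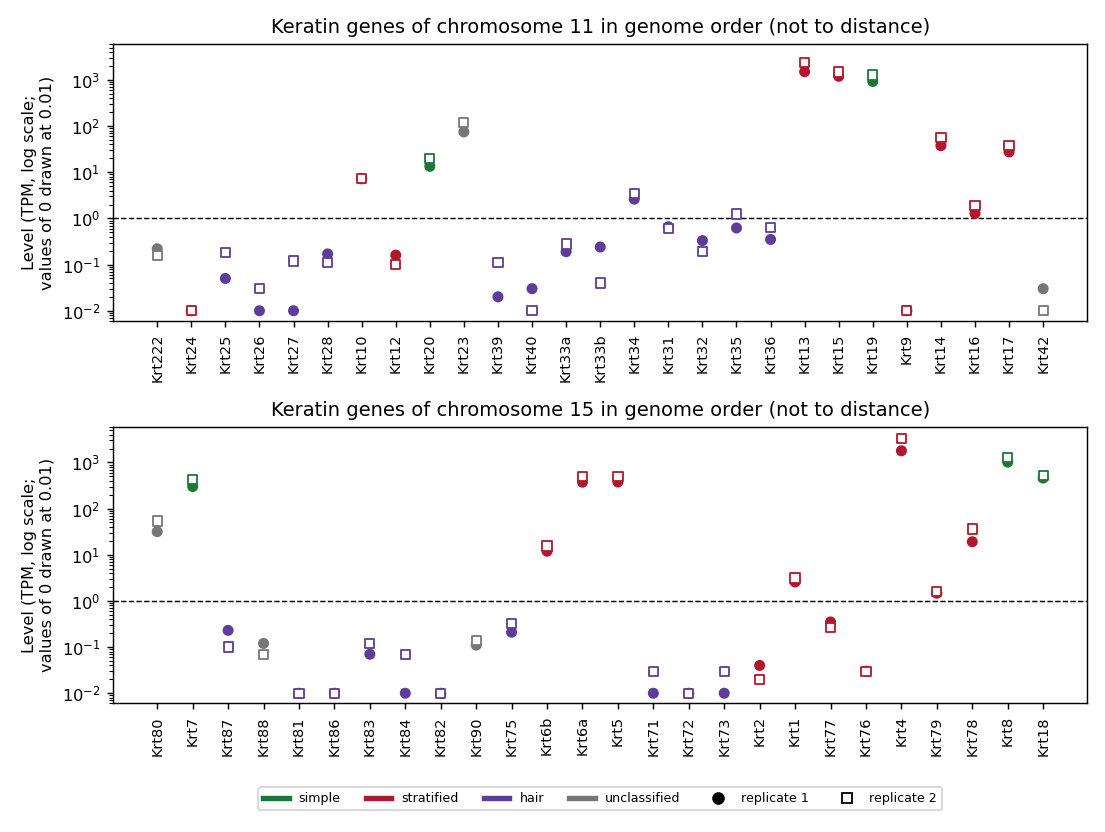
Level in TPM (log axis) of all 53 keratins in genome order along chromosome 11 (upper panel) and chromosome 15 (lower panel), with filled circles for replicate 1, open squares for replicate 2, colours for the class and a dashed line at 1 TPM. High genes sit side by side (Krt13, Krt15 and Krt19; Krt6a and Krt5), while the runs of hair genes stay at or below 3.52 TPM.

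Along the chromosomes, expressed members stood in short runs between members that did not reach 1 TPM in both libraries. On chromosome 11, Krt13, Krt15 and Krt19 follow each other with gaps of 10.2 and 4.88 kb, and each exceeded 900 TPM in both libraries. The gene before them, the hair keratin Krt36, stood at 0.35 and 0.63 TPM only 11.7 kb from Krt13, and the gene after them, Krt9, at 0. On chromosome 15, Krt6b, Krt6a and Krt5 formed a run with gaps of 9.62 and 12.8 kb, and the neighbours Krt75 and Krt71 were under 1 TPM. The last 5 genes, Krt4, Krt79, Krt78, Krt8 and Krt18, were all expressed, yet Krt79 at 1.54 TPM lay 4.60 kb from Krt4 at 2520. Classes were interleaved: simple Krt19 adjoins basal Krt15, and simple Krt8 follows suprabasal Krt78 after 42.4 kb. The pattern is described by position, and no test was made of it.

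Type I and type II transcripts were close to balance. Type I genes summed to 4255 and 5920 TPM and type II genes to 3922 and 6091. Their ratio was 1.08 and 0.972, a log2 ratio of 0.038 ± 0.11 (SD, n = 2), with opposite signs in the 2 libraries and a mean smaller than its SD. By cluster, chromosome 11 summed to 3797 and 5396 TPM and chromosome 15 to 4380 and 6616, a log2 ratio of -0.25 ± 0.06. That difference from the ratio by type is made by Krt18 alone, which is type I on chromosome 15. With 2 libraries an exact sign-flip test cannot give a p below 0.5, so no balance was tested.

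The 2 classes with the most transcripts were each close to balance, and the 2 smaller ones were not. Simple type I genes summed to 1399 and 1816 TPM and simple type II genes to 1317 and 1734, a ratio of 1.06 and 1.05. Stratified type I genes summed to 2776 and 3979.8 TPM and stratified type II genes to 2573 and 4302, a ratio of 1.08 and 0.925. Type I genes led in the others: unclassified type I summed to 74.8 and 118 TPM against 31.9 and 54.2 for type II, and hair type I to 5.27 and 7.06 against 0.52 and 0.68. Stratified keratins made up 67.2% ± 2.51 of the total and stood above the simple class in both libraries. The simple to stratified ratio was 0.508 and 0.429.

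**Figure D3:**
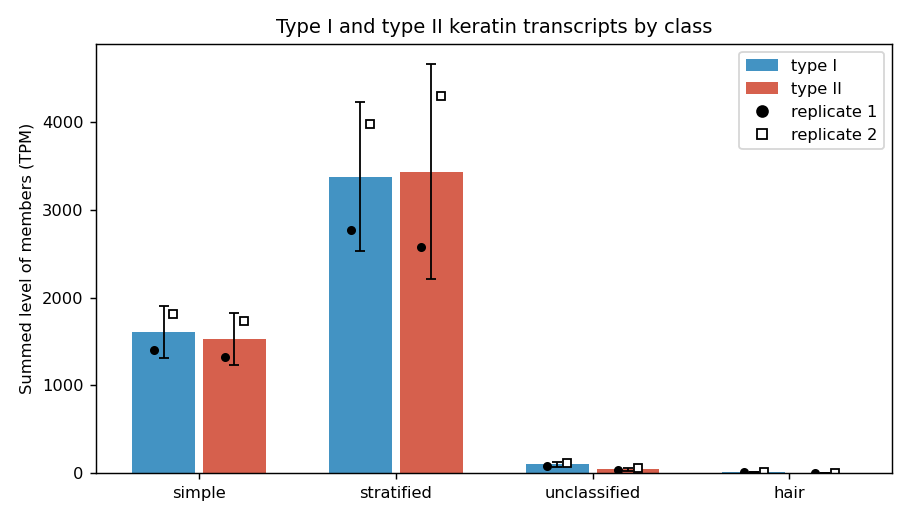
Summed level in TPM of type I (blue) and type II (red) keratins in each class; bars are means of 2 libraries, error bars the SD, and points the libraries. Simple type I and type II sums lie close together in each library, and the stratified type II sum runs from 2573 in replicate 1 to 4302 in replicate 2.

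Partner genes were less balanced than the sums. On the log2(TPM + 0.1) scale Krt8 exceeded Krt18 by 1.23 ± 0.12 (2.22-fold and 2.48-fold), and Krt5 exceeded Krt14 by 3.23 ± 0.12 (10.0-fold and 8.87-fold). Krt4 exceeded Krt13 by 0.34 ± 0.13 (1.19-fold and 1.36-fold), the closest of the 4 textbook pairs. Krt1 minus Krt10 was -1.33 ± 0.16, the only pair in which the type I gene was higher. The sign of each difference held in both libraries, and each was larger than its SD. Krt15 and Krt19, type I genes outside these 4 pairs, each stood above Krt18 and Krt14 in both libraries.

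Transcript tables listed several transcripts for 5 expressed members (Krt7, Krt13, Krt14, Krt15 and Krt19), and in all 5 the same transcript led in both libraries. Krt13-201 carried 98.9% ± 0.0849 of the TPM of Krt13. For Krt15, Krt15-201 carried 97.8% ± 2.12, and the intron-retaining Krt15-202 stood at 0.72% in replicate 1 and 3.72% in replicate 2. Krt19 was more divided, with 66.7% ± 4.41 in Krt19-201 and 33.3% ± 4.38 in the non-coding Krt19-203 of 823 bases. Krt14-201 carried 61.1% and 52.0% of Krt14, the rest falling to the non-coding Krt14-202 of 1122 bases.

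For Krt7 the unit decided which transcript led. By TPM the short Krt7-204 (642 bases) led with 49.0% ± 0.297 against 45.3% ± 0.156 for the full-length Krt7-201 (4094 bases). By expected counts Krt7-201 held 16643 and 13439, and Krt7-204 only 2442 and 1979. Counting only the longest protein-coding transcript of each gene, an alternative added after the data were seen, put Krt5 above Krt14 by 4.06 in place of 3.23 and lowered the simple share to 27.5%. These shares are estimates, since transcripts of a gene overlap in sequence.

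Every expressed keratin stood lower in replicate 1 than in replicate 2. Ratios were taken from rounded expected counts scaled by TMM, a scaling that sets the typical gene near 0, over the 17763 genes with enough counts; 27 keratins were among them. Of all these genes 49.6% were lower in replicate 1, with a median log2 ratio of 0.00. Of the 27 keratins 24 were lower, among them all 21 expressed ones, and the median was -0.38. Krt222 (0.45), Krt77 (0.37) and Krt31 (0.10), all under 1 TPM, were higher.

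The differences were modest in size. In all, 0 keratins were more than 2-fold lower, against 2.34% of all genes, and 0 were more than 2-fold higher, against 1.24%. More than 1.5-fold lower were 8 of 27, against 5.15% of all genes, and 5 of these 8 were expressed: Krt78, Krt4, Krt80, Krt13 and Krt23. Each side is a single library, so no test across genes was made. The 95% counting interval of the ratio (exact, from the binomial split of a gene's counts) lay wholly below 0 for 16 of the 21 expressed members. It covers counting error only. The share of all genes with such an interval was not computed, so this count has no background to be read against.

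**Figure D4:**
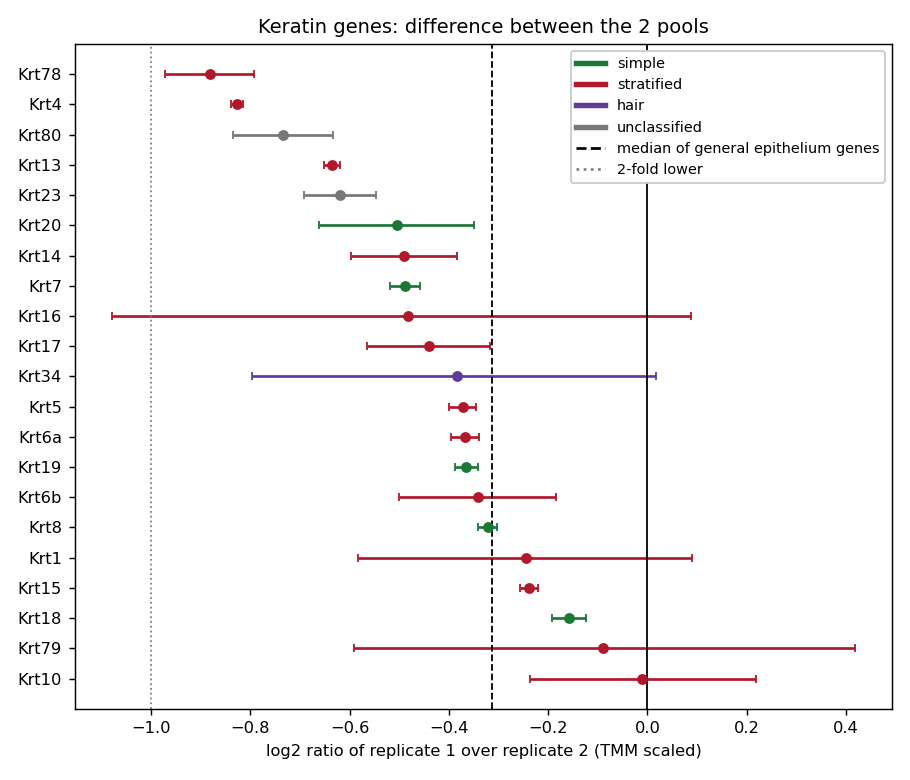
TMM-scaled log2 ratio of replicate 1 over replicate 2 for the 21 expressed keratins, with 95% counting intervals, colours for the class, a solid line at 0, a dashed line at the median of 10 general epithelial genes and a dotted line at 2-fold lower. All points lie below 0, from -0.88 for Krt78 to -0.01 for Krt10, and the mucosal suprabasal genes are among the lowest.

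Mucosal suprabasal genes stood further below 0 than basal and simple ones, with 3 of 5 past the filter. Krt78 had a log2 ratio of -0.88 (counting interval -0.97 to -0.79), Krt4 -0.83 (-0.84 to -0.82) and Krt13 -0.64 (-0.65 to -0.62). The 3 basal genes ran from -0.49 to -0.24 and the 5 simple genes from -0.50 to -0.16, so neither range overlapped that of the mucosal suprabasal genes. The depth was not particular to this subgroup: the unclassified Krt80 lay within its range at -0.73, and Krt23 stood at -0.62. Krt18 was the least shifted of the simple genes at -0.16 (-0.19 to -0.12). Of the epidermal pair, Krt10 stood at -0.01 (-0.24 to 0.22) and Krt1 at -0.25 (-0.58 to 0.09), and both intervals include 0. The difference between subgroups was not tested, and subgroup members are not replicates.

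Genes common to epithelia were lower in replicate 1 too. All 10 of 10 general epithelial genes were lower, with a median log2 ratio of -0.31 and a range of -0.40 to -0.12. The 4 highest were the claudin gene Cldn7 at 325 and 369 TPM, Epcam at 271 and 312, the E-cadherin gene Cdh1 at 175 and 223, and Rab25 at 116 and 165. The lowest was Esrp1 at 38.6 and 51.4. Relative to the median of these genes, an alternative added after the data were seen, 16 expressed keratins stood lower and 5 higher in replicate 1. On that scale the simple median was -0.050 and the stratified median -0.056, while Krt4 stood at -0.51 and Krt10 at 0.30.

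Scaling by the spike-in RNAs moved all genes. It shifted the median gene by -0.57, and under it 13 of the 27 keratins lay more than 2-fold lower in replicate 1, against 7.41% of all genes. The 21 expressed members then ran from -1.46 to -0.59, which is below the shift of the typical gene for each of them. Under each of the other scalings run, DESeq2 size factors and unscaled TPM, all 21 stayed lower in replicate 1.

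Marker genes of other tissues moved in several directions. Stomach and epidermis markers stood lower in replicate 1, as the keratins did. The 5 stomach genes had a median log2 ratio of -0.62 with 4 of 5 lower, from -1.76 for Gkn1, of surface mucous cells, to 0.30 for the mesenchymal factor Barx1. All 5 epidermis markers past the filter were lower, with a median of -0.60, and so were all 3 hair follicle markers, with a median of -0.52. The part of these cell types in the keratin ratios was not tested. On the other side, the 5 skeletal muscle genes had a median of 4.38. Liver genes stood at 0.28, with 0 of 4 lower and a sum of 1213 and 966 TPM. Mesothelium, itself a keratin-bearing tissue that makes Krt8, Krt18, Krt19 and Krt7, had a median of -0.19 with 3 of 5 genes lower and a sum of 174 and 221 TPM. Pancreas genes had a median of -0.20 with 3 of 5 lower and a sum of 3933 and 3947 TPM, and intestine genes 0.07. Pancreatic ducts, bile ducts and intestine make simple keratins as well, and the part of these tissues in the simple keratin levels was not tested.

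Other intermediate filament genes did not share the shift. The vimentin gene Vim stood at 402 and 397 TPM, the lamin genes Lmna at 221 and 257 and Lmnb1 at 72.7 and 74.6, and the desmin gene Des at 157 and 140. Of the 8 listed genes 2 were lower in replicate 1, with a median log2 ratio of 0.12. Gfap, of glia, was lowest at 0.74 and 0.62 TPM. Summed keratin transcripts, 8177 and 12012 TPM over 53 genes, exceeded those of the single gene Vim by a wide margin in both libraries. The 8 listed genes together summed to 886 and 899 TPM.

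Of the genes whose products anchor or modify keratin filaments, 14 of the 15 found were detected, against 64.3% of all protein-coding genes. The plakoglobin gene Jup stood at 199 and 274 TPM, the casein kinase gene Csnk1a1 at 207 and 219, the plakophilin gene Pkp3 at 76.6 and 108 and Pnn at 66.7 and 67.0, while Flg was lowest. Of 14 genes past the filter 10 were lower in replicate 1, and the median was -0.17. The periplakin gene Ppl, named after its values were seen, had the lowest ratio at -0.70 with 49.8 and 82.9 TPM. The median was nearer 0 than that of the keratins, and the difference was not tested.

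The genes listed as keratin gene regulators were all detected, 12 of 12, against 64.3% of all protein-coding genes. Elf3 stood at 130 and 177 TPM, Klf5 at 54.7 and 67.8, Grhl3 at 43.9 and 62.2 and the splicing regulator Esrp1, also in the general epithelial list, at 38.6 and 51.4. The intestinal factor Cdx2 was lowest at 2.76 and 2.08. Trp63, the master regulator of stratified epithelium, stood at 34.4 and 45.5 TPM and was named after its values were seen. Of the 12 genes 10 were lower in replicate 1, with a median of -0.37. The exceptions were Cdx2 (0.44) and Gata6 (0.14).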

How the data were processed

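Total RNA of both pools was sequenced, per the labels, and text notes the authors deposited name mm10 and annotation M4. Which aligner and quantifier served is not given in the sources used here. For genes the authors deposited expected counts (estimated reads per feature), TPM, posterior mean TPM and FPKM, and for transcripts also the percent of a gene's TPM that each carries. Symbols, positions and transcripts came from GENCODE M21. Spike-ins and other features without an Ensembl identifier (3.08% and 2.05% of counts in replicates 1 and 2) stayed out of library sizes.

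Computed here, detection meant 1 TPM in both libraries, and partner differences used a pseudocount of 0.1. Expected counts were rounded, filtered by filterByExpr with 1 group and, in edgeR 4.0.16, scaled by TMM (factors 1.01 and 0.992). The log2 ratio used a prior count of 2, and "called" meant past 2-fold. This step was checked on simulated counts. DESeq2 1.42.0 gave alternative size factors. Python 3.11.15, scipy 1.17.1 and biopython 1.88 served the rest. Members, classes and lists were chosen with earlier results of these data known. Any keratin could be named, and of each other list the 4 highest genes and the lowest. The stomach list and some comparisons were added after the files had been seen. Other thresholds, units, pseudocounts, filters, scalings and single libraries were tried as alternatives.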

Additional observations from a re-analysis of the deposited data

How the results depend on the processing

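Alternatives that use only the longest protein-coding transcript or the median of general epithelial genes were chosen after the data were seen. Of 77 alternatives, 60 kept the direction and size of the result, 14 moved and 3 reversed. For the type ratio, class shares and partner differences, keeping the size meant a change below the SD of the libraries. With 2 libraries, leaving either out always stays within that SD, so those alternatives could not count as moved. FPKM and TPM are nearly proportional within a library, so FPKM could hardly move these results either. The cause of a change was not tested unless the construction shows it. Detected keratins numbered 33 at 0.1 TPM. The type I to type II log2 ratio of 0.038 became -0.032 with the longest coding transcript and -0.25 by chromosome, and ran from -0.041 to 0.12 with either library left out. The simple share became 27.5% with the longest coding transcript and 16.8% with Krt7 and Krt19 as stratified, and the stratified share 71.0% and 81.8%. The hair share was 0.0772% by posterior mean TPM. Krt5 minus Krt14 became 4.06 with the longest coding transcript, and Krt1 minus Krt10 became -1.11 with a pseudocount of 1. Keratins beyond 2-fold numbered 13 with spike-in scaling (which puts 7.41% of all genes as low) and 6 with no filter. Those 6 are not expressed members, since with no filter the 21 expressed ones ran from -0.88 to -0.01. The share of all unfiltered genes past 2-fold was not computed. At a fold of 1.5 the keratins numbered 8. The simple median of -0.36 became -0.94 with spike-ins and -0.050 relative to general epithelium. The stratified median of -0.37 became -0.95 with spike-ins and -0.056 relative to general epithelium. For these medians, keeping the size meant a change below the SD across members of the class. The stratified -0.056 was therefore counted as kept, while the simple -0.050 was counted as moved. No paired analysis was possible because there is 1 group. Depth limits the members under 10 counts, where no difference was detectable.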
